A study of Mus musculus with 12 samples.

Results

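The iron genes followed are 9 that bring iron into the cell, reduce it, store it, release it from the store or export it. They are the rows of the deposited expression table named Tfrc, Slc11a2, Steap3, Steap4, Slc40a1, Fth1, Ftl1, Ncoa4 and Hmox1, 9 of 55806 genes. All 9 had a value above 0 in each of the 12 libraries and all 9 passed the filter of the test. The libraries are total RNA from mouse osteoclasts, the multinucleate cells that resorb bone. Marrow monocytes of mice, 8 to 12 weeks old, had been given M-CSF and RANKL, the cytokines that drive this differentiation, for 4 days. Control and Per1 knockout cultures were each grown from males and from females, which makes 4 groups with 3 libraries in each. Library names mark the allele as a conditional knockout (Per1_cKO), while the sources used here give neither the driver of the deletion nor the alleles that the controls carry. Replicates are labelled biological and carry batch numbers 1 to 3. Whether each is from its own animal is not in the labels, so the p-values speak only of the spread between these libraries, and that may be technical.

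Iron reaches most cells bound to transferrin, which the transferrin receptor Tfrc carries into endosomes. There a metalloreductase of the Steap family reduces the ferric ion and Slc11a2 (DMT1) moves the ferrous ion into the cytosol. Surplus iron is packed into ferritin, a shell of heavy (Fth1) and light (Ftl1) chains, and Ncoa4 hands ferritin to autophagy when iron is needed. Slc40a1 (ferroportin) exports iron, and Hmox1 (haem oxygenase 1) frees it from haem. Osteoclasts are rich in mitochondria, whose haem and iron-sulphur enzymes use iron, and transferrin receptor expression is known to rise when precursors become osteoclasts. Cells set the level of several of these proteins after transcription. Iron regulatory proteins bind a short hairpin in the messenger, the iron-responsive element, when iron is low. They block translation where the hairpin lies in the 5′ untranslated region (UTR) and stabilise the messenger where it lies in the 3′ UTR, and messenger levels alone do not show the former.

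Hairpins of this kind are printed because they are where iron regulatory proteins act on ferritin, ferroportin and the transferrin receptor, and because messenger levels do not report that control of translation. The pattern searched was a C, 5 bases, the loop CAGTGN and 5 bases that pair with the first 5 (G-U pairs allowed), on the sense strand of annotated UTRs of GENCODE M21 on GRCm38. It was found at 7 sites in 4 of the 9 genes. Over 21877 protein-coding genes it was found in the 5′ UTR of 0.142% and in the 3′ UTR of 0.59%. Capitals mark the loop in each 29-base site.
Fth1, 5′ UTR, chr19:9982732-9982760, plus strand: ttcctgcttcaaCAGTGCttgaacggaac
Ftl1, 5′ UTR, chr7:45459779-45459807, minus strand: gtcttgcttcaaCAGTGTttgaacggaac
Slc40a1, 5′ UTR, chr1:45925465-45925493, minus strand: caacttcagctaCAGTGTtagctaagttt
Tfrc, 3′ UTR, chr16:32631219-32631247, plus strand: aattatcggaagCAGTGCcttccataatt
Tfrc, 3′ UTR, chr16:32631598-32631626, plus strand: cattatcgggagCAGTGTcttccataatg
Tfrc, 3′ UTR, chr16:32631663-32631691, plus strand: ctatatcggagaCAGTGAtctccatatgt
Tfrc, 3′ UTR, chr16:32631710-32631738, plus strand: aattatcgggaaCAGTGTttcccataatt
The ferritin chains share the bases that follow the loop, and the 4 Tfrc sites lie in a row in 1 UTR. The search kept no match in the annotated UTRs of Slc11a2, Steap3, Steap4, Ncoa4 and Hmox1. For the 9 genes, matches across an exon junction or too near a transcript end were dropped, while the shares over all genes kept them. An element with an imperfect stem would be missed as well, so this does not show that these genes lack an element.

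Depth was lowest for male knockout 1 (15366600 fragments) and highest for male knockout 2 (24346288), rebuilt from the FPKM values (fragments scaled by gene length and by library size), and 3 fragments on a gene of 1 kb equal 0.123 to 0.195 FPKM. The libraries fell apart in 2 ways that cross the groups. In 4 libraries (male control 3, male knockout 1, female control 1 and female control 3) ribosomal RNA genes took 0.437% to 0.527% of fragments, against 1.16% to 1.48% in the other 8. In 3 libraries (female control 2, female knockout 1 and female knockout 2) the mean log2 level of 16 interferon response genes, set against the mean of all 12 libraries, was 1.65 to 2.00, against −0.978 to 0.321 in the other 9. Per1 stood at 3.34 ± 0.563 FPKM (SD, n = 3) in male controls and 2.67 ± 0.314 in the male libraries labelled knockout (exact permutation test, two-sided, p = 0.2, where 0.1 is the smallest that 3 against 3 allows). In females it was 2.94 ± 0.441 FPKM in controls and 3.57 ± 0.651 in the libraries labelled knockout (n = 3, exact permutation test, two-sided, p = 0.3). Gene-level values take in reads from the whole gene, and the sources used here do not say which exons were deleted, so this does not check the deletion itself. The genotype is therefore called by its label throughout.

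The labelled cell type was borne out by osteoclast genes: Ctsk, the collagen-cutting cathepsin K, averaged 6085 FPKM, Mmp9 3218 and Acp5, the tartrate-resistant phosphatase, 2979.5. Erythroid cells and macrophages that recycle red cells are the other heavy users of this pathway in marrow. The 11 erythroid markers in the table summed to 2.67 to 9.56 FPKM, with 7 of 11 under 1 FPKM in every library and Rhag listed at 0 in all 12. Macrophage markers summed to 579.7 to 1685 FPKM over 16 genes and neutrophil markers to 1409.6 to 2932 over 10 genes, led by S100a9 at a mean of 974. In such bulk samples, fewer cells of a type and less RNA per cell cannot be told apart.

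In control osteoclasts the storage genes stood at the top and the exporter at the bottom. Mean levels over the 6 control libraries were 1831 ± 291 FPKM (SD, n = 6) for Ftl1 (rank 14 of the table) and 966 ± 196 for Fth1 (rank 29). Tfrc followed at 276 ± 46.6 FPKM (rank 162), then Hmox1 at 73.6 ± 14.4, Steap4 at 34.7 ± 2.78 and Ncoa4 at 28.2 ± 2.22. The divalent metal transporter Slc11a2 stood at 20.9 ± 2.19 FPKM, the endosomal reductase Steap3 at 13.2 ± 1.41 and the exporter Slc40a1 at 3.40 ± 0.895 (rank 8315). Along this order in FPKM neighbouring genes did not overlap in range over the 6 libraries except Steap4 and Ncoa4, where Steap4 was the higher in 6 of 6 libraries. The 9 genes together took 0.715% to 0.968% of all fragments, and the 2 ferritin chains alone 0.473% to 0.745%. The order depends in part on the lengths in the deposited table, which exceed the longest annotated coding transcript most for Slc40a1 (9000 against 3370 bases), Fth1 (3469 against 1494) and Ncoa4 (9365 against 4065). Per length of that transcript Ncoa4 (65.0 ± 5.04, SD, n = 6) stood above Steap4 (34.8 ± 2.81) in 6 of 6 control libraries without overlap. Neighbours overlapped for Ftl1 and Fth1, for Hmox1 and Ncoa4, and for Steap4 and Slc11a2. Slc40a1 remained the lowest of the 9 genes at 9.08 ± 2.39. Their genome positions on GRCm38 are given with each gene below, taken from GENCODE M21 by gene ID, because the coordinates in the deposited table matched that annotation for only 2.80% of shared IDs.

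**Figure D1:**
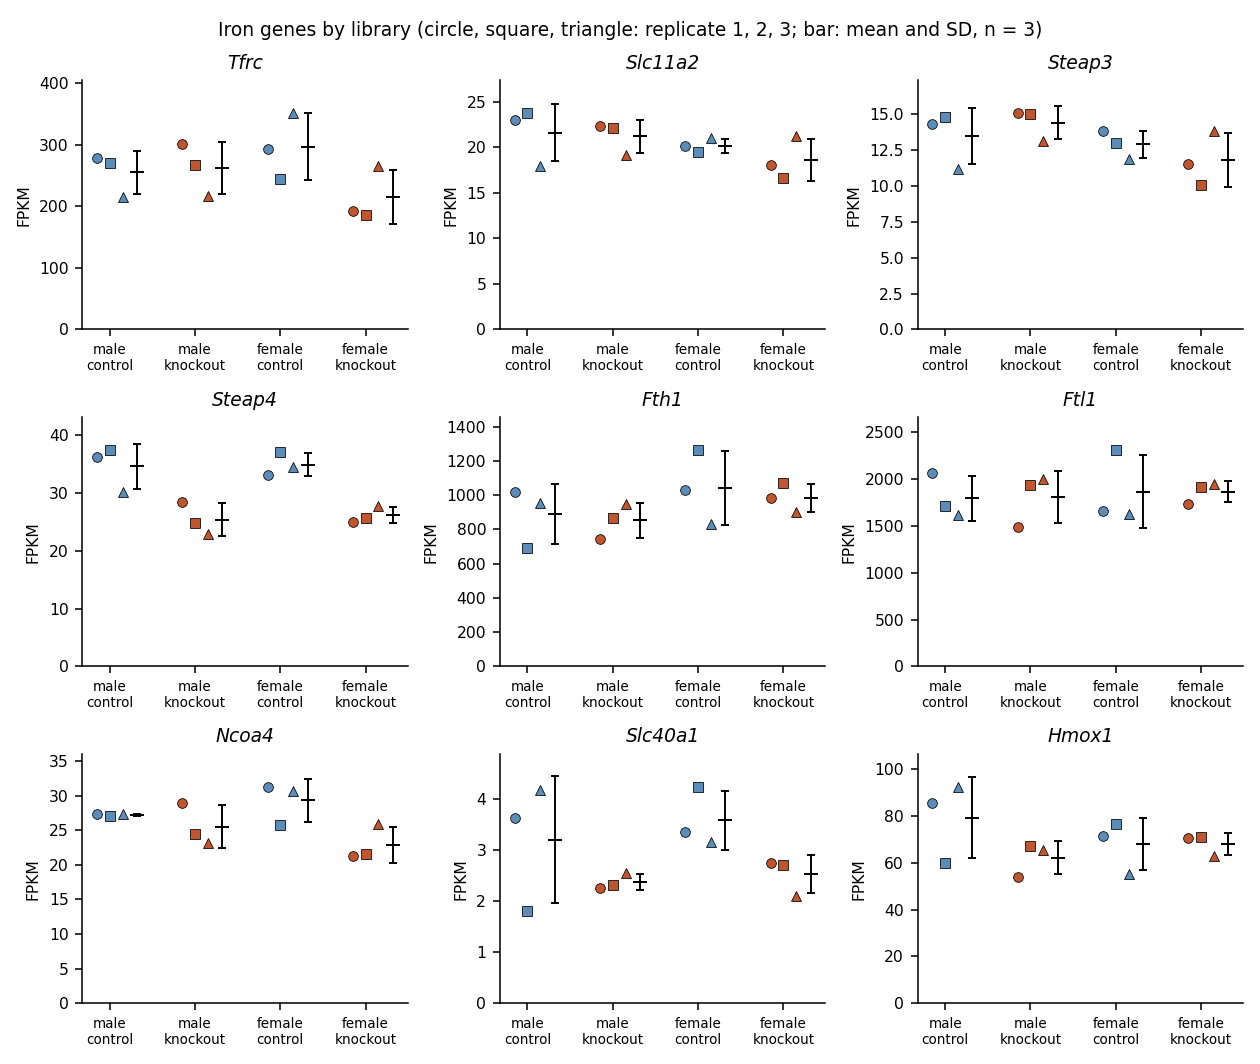
Level of the 9 iron genes in FPKM (vertical axes, each from 0) in the 12 libraries, by group; circles, squares and triangles are replicates 1, 2 and 3, and the bar to the right of each group is its mean and SD (n = 3). Steap4 is the one gene with all 6 control libraries (30.1 to 37.5 FPKM) above all 6 labelled knockout (22.9 to 28.5 FPKM).

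No member of the iron set passed the test of genotype in either sex, and of all other genes only Cx3cr1 did, in males. The test was limma on log2(FPKM + 1), with Benjamini-Hochberg adjustment over 12237 genes and a threshold of 0.05. It called 0 of the 9 in males, where 1 gene (Cx3cr1, a chemokine receptor of monocytes) was called, which is 0.00817% of those tested. It called 0 of the 9 in females, where 0% of all genes were called, and 0 of the 9 with the sexes averaged, where again Cx3cr1 alone was called (0.00817%). The difference of the genotype effect between the sexes gave 0 of the 9 against 0% of all genes, and the female and male controls gave 0 of the 9 against 0.0572%. At an unadjusted p under 0.05 the counts among the members were 1 in males, 3 in females and 3 on average, against 1790, 1390 and 1274 of the 12237 genes. With batch as a replicate block within sex, the count of genes called in males went from 1 to 0, and no member was called. Without male control 3 the test called 64 genes in males, without female knockout 3 it called 2, and it called 0 when male control 1, male knockout 2 or male control 2 was dropped. In females, and in the difference between the sexes, leaving out female knockout 1 gave 1 gene. None of the 9 was called with any 1 library left out. The values of each gene follow by role, with log2 changes on the log2(FPKM + 1) scale as labelled knockout minus control.

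Tfrc (ENSMUSG00000022797, chromosome 16, 32608920 to 32632794, plus strand), the receptor that imports transferrin-bound iron, had a lower mean in females labelled knockout than in female controls, and like means in males, with neither difference past the test. In the male controls it stood at 279, 271 and 215 FPKM in replicates 1 to 3, and in the male libraries labelled knockout at 302, 267 and 217. These overlap almost wholly, and the log2 change was 0.04 (SE 0.182, limma adjusted p = 0.953). In females the controls stood at 293, 245 and 352 FPKM and the libraries labelled knockout at 193, 186 and 265. Replicates 1 and 2 labelled knockout lay below every female control, while replicate 3 lay above 1 of them. The log2 change was −0.47 (SE 0.182, adjusted p = 0.409), and the difference between the sexes was −0.50 (SE 0.258, adjusted p = 0.337). Both low female libraries are of high interferon score. Without the 3 such libraries the female change was −0.28 (SE 0.225) with Tfrc left at 1 library labelled knockout, assumed to vary like the other groups. The part of that state in the Tfrc values was not tested.

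Slc11a2 (ENSMUSG00000023030, chromosome 15, 100387898 to 100425072, minus strand), which passes ferrous iron from the endosome to the cytosol, varied little. Male controls stood at 23, 23.8 and 18 FPKM and male libraries labelled knockout at 22.3, 22.1 and 19.2. Female controls stood at 20.1, 19.5 and 21.0 FPKM and female libraries labelled knockout at 18.1, 16.6 and 21.2. The groups overlapped in both sexes, with log2 changes of −0.02 in males (adjusted p = 0.959) and −0.11 in females (adjusted p = 0.677, limma). Its highest library was 1.43 times its lowest, the narrowest span of the 9 genes. Gm5475 overlaps it on the other strand but reached at most 0.287 FPKM.

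Steap3 and Steap4 are both metalloreductases that turn ferric into ferrous iron, and both were well detected. Steap3 (ENSMUSG00000026389, chromosome 1, 120190757 to 120272705, minus strand), the endosomal reductase first known from red cell precursors, stood at 14.3, 14.8 and 11.2 FPKM in male controls and 15.1, 15 and 13.1 in males labelled knockout. In females it stood at 13.8, 13 and 11.9 FPKM in controls and 11.5, 10.1 and 13.8 in those labelled knockout. The groups overlapped in both sexes, and the averaged log2 change was −0.01 (SE 0.0873, limma adjusted p = 0.974). Steap4 (ENSMUSG00000012428, chromosome 5, 7960457 to 7982213, plus strand), a family member studied in fat tissue and inflammation and also expressed in osteoclasts, is described next. The paralogues Steap1 and Steap2 stood at no more than 0.0777 and 0.00512 FPKM.

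Steap4 was the one member whose genotypes did not overlap in either sex. Male controls stood at 36.2, 37.5 and 30.1 FPKM (34.6 ± 3.92, SD, n = 3) and males labelled knockout at 28.5, 24.9 and 22.9 (25.4 ± 2.81). Female controls stood at 33.1, 37.1 and 34.5 FPKM (34.9 ± 2.0) and females labelled knockout at 25, 25.7 and 27.8 (26.2 ± 1.46). All 6 control libraries lay above all 6 labelled knockout, which 0.466% of tested genes matched in either direction. The log2 change was −0.43 in males (SE 0.0991, limma adjusted p = 0.116), −0.40 in females (SE 0.0991, adjusted p = 0.308) and −0.41 averaged over both (95% interval −0.57 to −0.26, adjusted p = 0.172). It ranked 7 of the 12237 genes by limma in the averaged contrast, where its adjusted p misses the threshold. The change between the sexes differed by 0.03 (SE 0.14). Each value rests on 1332 to 2456 fragments.

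The library sets that cross the groups were taken apart. Within the 8 libraries of higher ribosomal RNA share the Steap4 log2 change was −0.60 in males and −0.49 in females, where female control 2, of high interferon score, is the one control left. Without the 3 libraries of high interferon score it was −0.27 in females (SE 0.156), where female knockout 3 is the one library labelled knockout left. The SE of such a lone library is borrowed from the other groups, so these female values are weak. Every control library lay above every library labelled knockout, so leaving libraries out could not turn the Steap4 sign. Over all alternatives the averaged change ran from −0.55 to −0.35. It passed the threshold under weighting of the libraries only, where the estimate of the weights stopped before its tolerance was reached and 2068 genes were called. Marker lists also differed between the labelled genotypes, counted as knockout against control with no test of the list. Genes of a list share the same libraries, so the counts are not independent. Of 15 tested macrophage markers 15 were lower in males (median −0.45) and 10 were higher in females (median 0.17). Of 15 osteoclast genes 11 were lower in males (median −0.03) and 15 in females (median −0.21; 14 after rescaling by the median ratio). Replication genes were higher for 15 of 15 in males (median 0.31) and lower for 10 of 15 in females (median −0.09), and interferon response genes were 8 of 16 higher in males (median −0.01) and 16 of 16 in females (median 0.50). Set against all 12 libraries, the mean of the interferon genes was −0.37, 1.80 and 0.32 in female controls and 1.65, 2.00 and −0.48 in females labelled knockout. For osteoclast genes it was 0.10, −0.08 and 0.09, and −0.27, −0.32 and 0.02. Female replicate 3 labelled knockout thus lay within the control range for osteoclast genes and below it for interferon genes. The median of all genes was −0.00 in males and −0.01 in females. The part of these lists in the Steap4 values was not tested. The ratio of Steap4 to Steap3 in FPKM averaged 2.58 in male controls and 1.76 in males labelled knockout, and 2.71 and 2.24 in females.

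**Figure D2:**
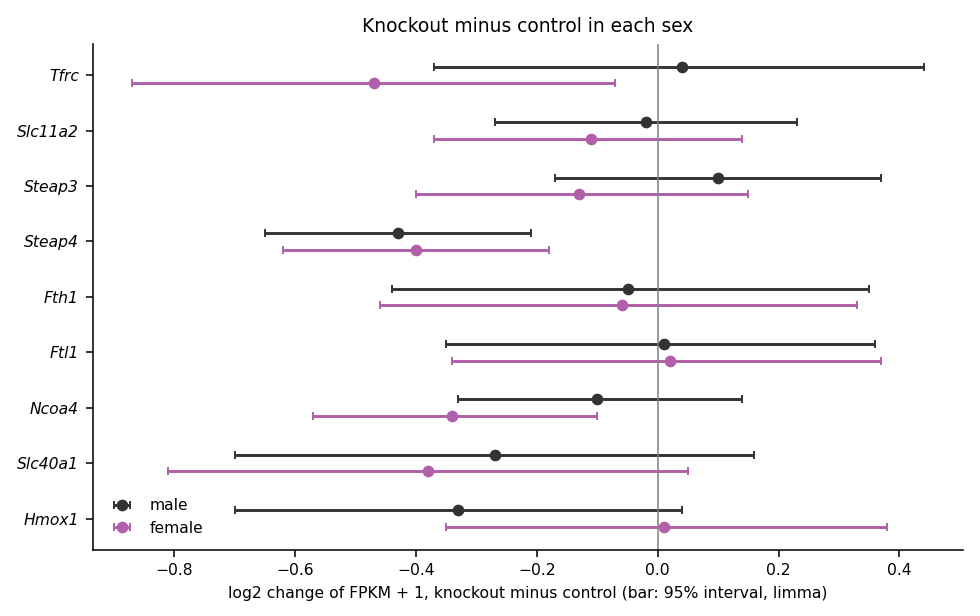
Log2 change of FPKM + 1, labelled knockout minus control (horizontal axis), for each of the 9 genes in males and females, with bars for the 95% interval from limma over 12 libraries. Steap4 lies below 0 with its whole interval in both sexes, as Tfrc and Ncoa4 do in females, while Ftl1 and Fth1 sit near 0, and no adjusted p passed 0.05.

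The ferritin chains, by far the most abundant of the 9, showed no separation by genotype. Fth1 (ENSMUSG00000024661, chromosome 19, 9980598 to 9985098, plus strand), the heavy chain with the ferroxidase site, stood at 1021, 690.1 and 957 FPKM in male controls and 745, 869.5 and 946 in males labelled knockout. In females it stood at 1029.6, 1266 and 830.1 FPKM in controls and 983, 1069 and 903 in those labelled knockout. The averaged log2 change was −0.05 (95% interval −0.33 to 0.22, limma adjusted p = 0.916). Ftl1 (ENSMUSG00000050708, chromosome 7, 45457944 to 45459884, minus strand), the light chain that aids iron core formation, stood at 2067, 1707 and 1611 FPKM in male controls and 1488, 1938 and 1996 in males labelled knockout. In females it stood at 1659, 2312 and 1628 FPKM in controls and 1738, 1911 and 1944 in those labelled knockout. The averaged log2 change was 0.01 (95% interval −0.24 to 0.26, adjusted p = 0.985).

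Which ferritin chain led depended on the length used. With the gene lengths of the deposited table (3469 bases for Fth1, 1340 for Ftl1) the ratio of Fth1 to Ftl1 was 0.404 to 0.621 over the 12 libraries, with a median of 0.505. In rebuilt fragments Fth1 held more than Ftl1 in every library, at 1.05 to 1.61 (median 1.31). Per base of the first annotated coding transcript (929 and 968 bases) the ratio was 1.09 to 1.67. The mean ratio in FPKM was 0.498 in male controls and 0.474 in males labelled knockout, 0.559 in female controls and 0.53 in females labelled knockout.

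Near-identical copies touch the ferritin values. Of 20 genes of the table that share a name stem with a member, 10 were listed at 0 in all libraries and 15 stayed under 1 FPKM in all. Ftl1-ps1, annotated as protein coding, was the highest copy and split by library set: 30.2 to 36.0 FPKM in the 4 libraries of lower ribosomal RNA share, and 54.4 to 72.0 in the other 8. Its fragments were 1.69% to 2.21% of those of Ftl1 in the former and 2.63% to 3.08% in the latter. Ftl2-ps stood at 0.617 to 3.78 FPKM. The sources used here do not say how the deposited counting placed reads that match several copies, so Ftl1 and its copies are uncertain by an amount that was not measured. The 2 genes that overlap Ftl1 reached at most 1.12 FPKM.

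**Figure D3:**
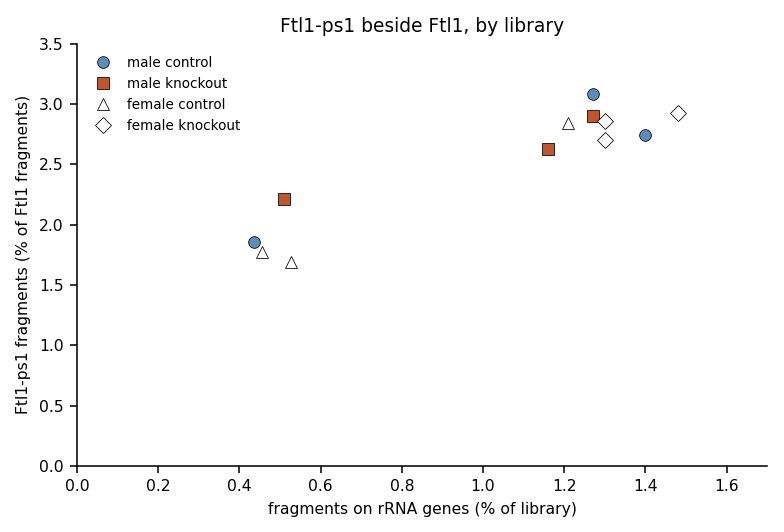
Fragments on Ftl1-ps1 as a percentage of those on Ftl1 (vertical axis) against the percentage of fragments on ribosomal RNA genes (horizontal axis), 1 point per library, shaped by group. The 4 libraries on the left, from 3 groups, lie at 1.69% to 2.21%, below the other 8 at 2.63% to 3.08%.

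Ncoa4 (ENSMUSG00000056234, chromosome 14, 32159865 to 32179855, plus strand), the receptor that brings ferritin to the lysosome, had a lower mean in females labelled knockout, without passing the test. Male controls stood at 27.3, 27.1 and 27.3 FPKM and males labelled knockout at 29, 24.5 and 23.1. Female controls stood at 31.3, 25.8 and 30.6 FPKM and females labelled knockout at 21.3, 21.6 and 25.9. The male libraries overlapped, and in females 1 library labelled knockout (25.9) lay just above 1 control (25.8). The log2 change was −0.10 in males (SE 0.106, limma adjusted p = 0.72) and −0.34 in females (SE 0.106, adjusted p = 0.379). As with Tfrc, the low female libraries are those of high interferon score, whose part was not tested. Without the 3 of high interferon score the female Ncoa4 change was −0.25 (SE 0.124). The processed pseudogene Ncoa4-ps stood at 22.5 to 31.5 FPKM and held 18.5% to 23.6% as many fragments as Ncoa4, so reads could be split between them.

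Slc40a1 (ENSMUSG00000025993, chromosome 1, 45908068 to 45926523, minus strand), the known iron exporter of mammals, had a lower mean in the libraries labelled knockout of both sexes, again without passing the test. Male controls stood at 3.64, 1.81 and 4.19 FPKM and males labelled knockout at 2.26, 2.33 and 2.55. Male control 2 lay below all 3 labelled knockout and the other controls above them. Female controls stood at 3.36, 4.25 and 3.16 FPKM and females labelled knockout at 2.76, 2.71 and 2.10, with no overlap. The log2 change was −0.27 in males (SE 0.195, limma adjusted p = 0.556), −0.38 in females (SE 0.195, adjusted p = 0.468) and −0.32 on average (SE 0.138, adjusted p = 0.46). Within the 8 libraries of higher ribosomal RNA share the Slc40a1 change was −0.07 in males and −0.58 in females, with male control 3, male knockout 1, female control 1 and female control 3 left out, so the female value rests on 1 control. The male Slc40a1 change was −0.54 (SE 0.124, adjusted p = 0.202) without male control 2, −0.18 without male control 1 and −0.10 without male control 3. Groups without overlap were seen for 1 of the 9 genes in males (Steap4), where 23.4% of all tested genes had none, and for 2 of the 9 in females (Steap4 and Slc40a1), against 13.2%. In the same direction in both sexes it was 1 of 9 (Steap4), against 1.23%.

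Hmox1 (ENSMUSG00000005413, chromosome 8, 75093621 to 75100589, plus strand), which opens the haem ring and frees its iron, had a lower mean in males labelled knockout and like means in females, with neither difference past the test. Male controls stood at 85.5, 59.9 and 92.5 FPKM and males labelled knockout at 54.1, 67.0 and 65.3. Female controls stood at 71.6, 76.7 and 55.4 FPKM and females labelled knockout at 70.5, 71.1 and 62.7. The groups overlapped in both sexes: male control 2 lay below 2 of the males labelled knockout. The log2 change was −0.33 in males (SE 0.166, limma adjusted p = 0.39) and 0.01 in females (SE 0.166, adjusted p = 0.976), and the difference of 0.34 between the sexes gave an adjusted p of 0.451. Within the 8 libraries of higher ribosomal RNA share the male Hmox1 change was −0.11 (SE 0.162). It was −0.52 (SE 0.142, adjusted p = 0.253) without male control 2 and −0.21 (SE 0.174) without male control 3. The constitutive haem oxygenase Hmox2 stood at 28.7 to 40.5 FPKM.

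Within the groups, most of the 9 genes varied from library to library in 2 blocks. Each library was set against its group mean in log2(FPKM + 1), and Pearson correlations over the 12 libraries are given as a description without a test. The blocks were formed after the values were seen, the points share libraries and depth, and between 5.39% (Steap4) and 19.4% (Ncoa4) of all tested genes correlated with a member at over 0.6. The uptake and reduction genes Tfrc, Slc11a2, Steap3 and Steap4 were positively correlated in 6 of 6 pairs, from 0.60 (Tfrc with Steap4) to 0.89 (Slc11a2 with Steap3). The exporter Slc40a1, the heavy chain Fth1 and Hmox1 were positively correlated in 3 of 3 pairs, from 0.83 to 0.93. Between these sets 12 of 12 pairs were negative, from −0.70 to −0.32. Male control 2 is an example: Slc40a1 lay 0.54, Hmox1 0.37 and Fth1 0.35 log2 units under the group mean there, while Steap3 lay 0.14 above it.

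Pairs within and between these sets had the same signs in subsets of libraries. In the 9 libraries without high interferon score the pairs of the uptake and reduction genes ran from 0.61 to 0.92, those of Slc40a1, Fth1 and Hmox1 from 0.83 to 0.95, and those between the sets from −0.73 to −0.29. In the 8 libraries of higher ribosomal RNA share they ran from 0.81 to 0.99, from 0.95 to 0.98 and from −0.60 to −0.23. Group means were taken again within each subset, so a group left with a lone library adds no spread. A group left with a pair adds mirrored values, so few values there are free. The subsets are also parts of the same 12 libraries, so their signs are no independent check. Ncoa4 had the signs of the uptake and reduction genes: it was correlated at 0.81 with Tfrc, 0.53 with Slc11a2, 0.46 with Steap3 and 0.36 with Steap4, and at −0.38 with Slc40a1, −0.61 with Fth1 and −0.49 with Hmox1, with the same signs in both subsets. Ftl1 was correlated at 0.69 with Fth1, while other pairs turned with the libraries: Ftl1 with Ncoa4 went from −0.62 to 0.34 and Ftl1 with Tfrc from −0.34 to 0.25 in the 8 libraries of higher ribosomal RNA share. Marker lists of cell types varied alongside. The mean of 15 osteoclast genes was correlated at 0.83 with Tfrc, 0.94 with Slc11a2, 0.86 with Steap3 and 0.64 with Steap4, and at −0.82 with Slc40a1, −0.63 with Fth1 and −0.69 with Hmox1. The mean of 10 neutrophil markers was correlated at −0.86 with Tfrc and 0.89 with Hmox1, and that of 15 macrophage markers at −0.82 with Tfrc, −0.82 with Ncoa4 and 0.81 with Fth1. The mean of 16 interferon response genes was correlated at −0.73 with Tfrc, −0.80 with Ncoa4 and −0.13 with Steap4. With Slc40a1 it was correlated at 0.49, with Fth1 at 0.51 and with Hmox1 at 0.39. The part of cell composition or of the interferon state in these blocks was not tested.

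**Figure D4:**
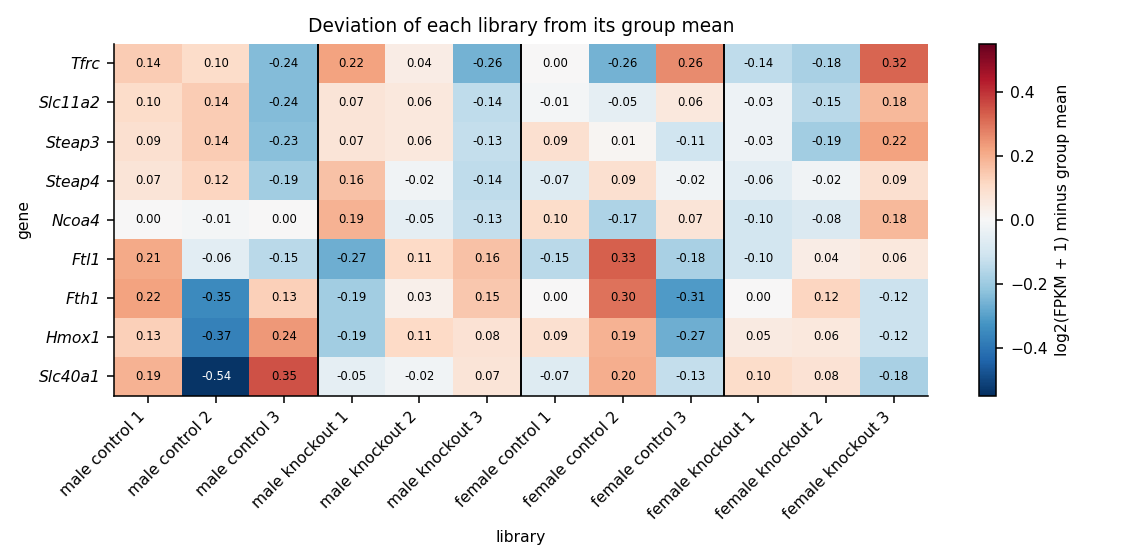
Deviation of each library (columns) from its group mean in log2(FPKM + 1) for the 9 genes (rows), red for higher and blue for lower, with the value in each cell. The upper 5 rows and the lower 3 rows often have opposite colours, as in male control 2, where Slc40a1 is at −0.54.

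None of the genes closest to each member was in the 6 lists below, of iron genes and of targets of the activator NRF2. Closeness was taken over the 12 libraries after group means were subtracted. These genes were picked as the highest among all tested protein-coding genes, so high r values come with the picking. The lists hold 57 of the 12237 tested genes, so picks outside them, and outside the members, were likely beforehand and say little. Tfrc was closest to Tbc1d4 (Pearson r 0.988) and Kdm5c (0.974), and Slc11a2 to Ap3d1 (0.979) and Slc6a8 (0.976). Steap3 was closest to Foxf2 (0.948) and Gga2 (0.947), and Steap4 to Vipas39 (0.958) and Coprs (0.926). Fth1 was closest to Dnaaf9 (0.984), Ftl1 to Ppt2 (0.961) and Syngr2 (0.957), and Ncoa4 to Map3k7 (0.985) and Msn (0.976). Slc40a1 was closest to Creg1 (0.963) and Ap4s1 (0.945), and Hmox1 to Rnf128 (0.980) and Adprs (0.973). No member was among the closest pair of another.

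Other genes of iron handling, and 9 targets of the activator NRF2, also stayed short of the threshold in every contrast. Of 74 genes in 6 lists 57 were tested, and the test called 0 of 57 in males, in females, on average and in the difference between the sexes. At an unadjusted p under 0.05 there were 10, 10, 9 and 13 of the 57, by limma, against 1790, 1390, 1274 and 2075 of all 12237 tested genes. The NRF2 targets, 9 of the 57, made up 0, 2, 0 and 6 of these. Medians of their log2 changes were −0.03 in males and −0.07 in females, beside −0.00 and −0.01 for all tested genes.

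Among transferrin cycle and import genes, 8 of 12 were tested. Transferrin itself (Trf) stood at 11.8 ± 3.62 FPKM (SD, n = 3) in male controls and 8.64 ± 0.51 in males labelled knockout, and at 12.7 ± 2.37 and 10.7 ± 1.57 in females (averaged log2 change −0.30, SE 0.144, limma adjusted p = 0.498). The importer Slc39a14 (ZIP14) stood at 1.78 and 2.18 FPKM in males and 1.43 and 1.52 in females, in the same order (averaged change 0.12, adjusted p = 0.5). The second transferrin receptor, Tfr2, reached at most 0.124 FPKM. Of 7 other metalloreductases and ferroxidases only Frrs1 was tested, at a mean of 24.3 FPKM, with an averaged change of −0.02.

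Among export and haem breakdown genes, 6 of 10 were tested. The lowest p in the averaged contrast belonged to biliverdin reductase A (Blvra), which acts just after haem oxygenase. It stood at 36.4 ± 0.829 FPKM in male controls and 32.9 ± 0.51 in males labelled knockout, and at 38.2 ± 1.07 and 34.9 ± 0.772 in females (n = 3, averaged log2 change −0.14, SE 0.0362, limma adjusted p = 0.28). All 6 controls (35.6 to 39.1 FPKM) lay above all 6 labelled knockout (32.4 to 35.5), as for Steap4 and for 0.466% of tested genes in either direction. The haem exporter Flvcr1 stood at 19.5 ± 2.09 and 17.0 ± 0.326 FPKM in males and 18.9 ± 1.64 and 15.7 ± 0.774 in females (−0.21, adjusted p = 0.283). Among iron sensors and chaperones, 10 of 12 were tested: Bach1, the haem-binding repressor of Hmox1, stood at 18.7 ± 1.01 and 15.7 ± 0.401 FPKM in males and at 20.3 in both female groups (averaged change −0.12, adjusted p = 0.422). Nfe2l2, which encodes NRF2, the activator that competes with it, had an averaged change of −0.17 (adjusted p = 0.491).

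Of mitochondrial iron, iron-sulphur cluster and haem synthesis genes, 23 of 25 were tested. The cluster factor Bola3 stood at 8.16 and 9.76 FPKM in males and 7.48 and 8.45 in females (averaged log2 change 0.19, limma adjusted p = 0.251). Its genotypes did not overlap within either sex, which 1.23% of tested genes matched in the same direction in both sexes. Hmox1 and the ferritin genes also belong to the family of NRF2 targets but are not in the list counted here. The listed NRF2 targets were 7 of 9 higher in males labelled knockout (median 0.14) and 9 of 9 lower in females labelled knockout (median −0.19), with none called. The list mean, set against all 12 libraries, was 0.05, −0.24 and 0.06 in male controls and 0.19, 0.08 and 0.07 in males labelled knockout. It was 0.18, −0.02 and 0.06 in female controls and −0.22, −0.29 and 0.09 in females labelled knockout. Female replicates 1 and 2 labelled knockout are of high interferon score, and the part of that state was not tested. The difference between the sexes was below 0 for 9 of 9 (median −0.33, against −0.01 for all genes), with 6 of 9 at an unadjusted p under 0.05 (2075 of 12237 genes); after rescaling by the median ratio it was below 0 for 8 of 9. G6pdx and Gsr, the pair of lowest p on average, changed by −0.11 (adjusted p = 0.612) and −0.08 (adjusted p = 0.772). Over the libraries, the mean of these targets was correlated at 0.18 with Hmox1 and 0.04 with Fth1. Hmox1, Fth1 and Ftl1 were left out of the 9. Hmox1 had the sign opposite to most of the list in males and to all of it in the difference between the sexes. Fth1 and Ftl1 stayed near 0, with mixed signs. The log2 changes of Hmox1, Fth1 and Ftl1 were −0.33, −0.05 and 0.01 in males and 0.01, −0.06 and 0.02 in females. The difference between the sexes was 0.34, −0.02 and 0.01 for them.

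**Figure D5:**
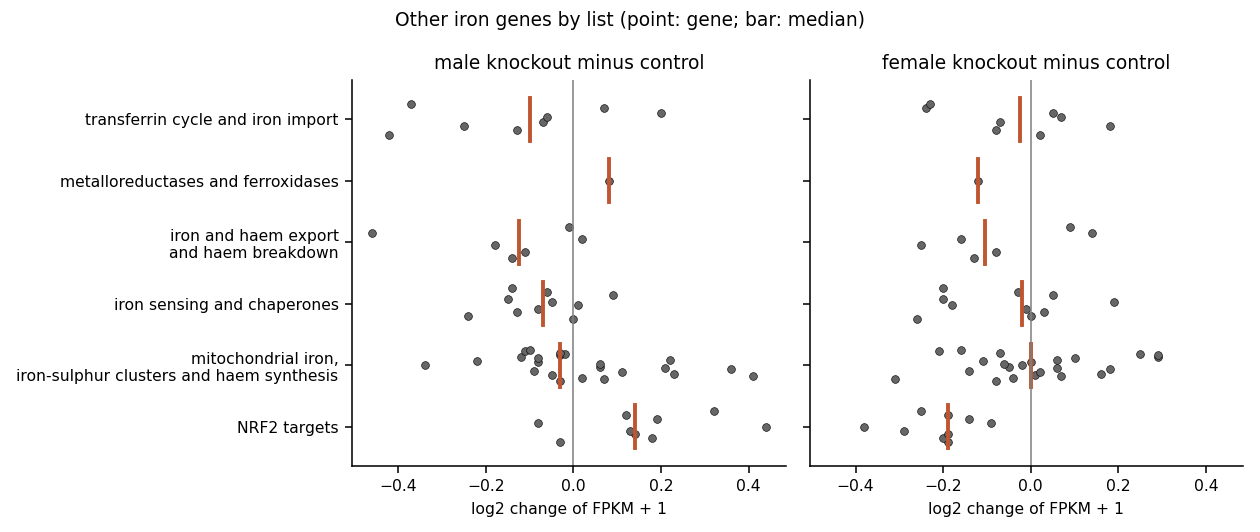
Log2 change of FPKM + 1, labelled knockout minus control, in males (left) and females (right). Rows are 6 lists, of iron genes and of NRF2 targets, with 1 point per tested gene and a bar at the list median. Medians lie near 0, and NRF2 targets have a median of 0.14 in males and −0.19 in females. In females labelled knockout the low NRF2 list means are those of replicates 1 and 2, of high interferon score.

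Promoter sequences of RefSeq on GRCm38.p6, short windows around each gene start, were matched for 6 of the 9 genes (13 promoters). The clock motif CACGTG, the palindromic E-box through which PER proteins act on CLOCK and BMAL1, was in 0 of these 13, and in 7.15% of 32851 promoters of the same length. This says only that these letters are not in this window.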

How the data were processed

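Total RNA of 12 osteoclast cultures was sequenced after NEBNext Ultra II library preparation, per the labels' protocols. The deposited values are FPKM per gene for 55806 genes, made by the authors; reads were aligned with HISAT2 2.0.5 to mm10 and counted with featureCounts 1.5.0-p3, per the submitters' processing notes. The sources used here do not say whether counting used strand. FPKM times the table's gene length gave fragments whole within 0.01 for 100% of values. The floor on counts covers counting error only, while the 95% intervals are from limma and reflect the spread between libraries.

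Log2(FPKM + 1) was tested with limma 3.58.1 (R 4.3.3) over all 12 libraries, with 1 mean per group and a variance trend, on the 12237 genes that reached an FPKM of 1 in 3 or more libraries; the other 43569 were left out. P-values are two-sided with Benjamini-Hochberg adjustment. The script was tested on simulated data. The replicate number is a batch number in the labels, which would pair libraries of the same number, and the main fit used no block for it. Deviations of same-numbered libraries correlated from −0.217 to 0.44 over 18 pairs, with 4 pairs over 0.1 and a mean of −0.00341. The mean over 36 other pairs was −0.000662.

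The 9 genes and all lists were chosen with earlier results of these data known. Other genes named are those of each list past an adjusted p of 0.05 or, with none, the 2 of lowest p in the averaged contrast, up to 3 marker genes per list by mean level, close copies by name, and the 2 tested protein-coding genes of highest correlation with each member; 2 genes that this rule names are not reported here. Cx3cr1 is named because it was called, and Ppox was chosen after its values were seen. Alternatives covered pseudocount, filter, trend, voom on rebuilt fragments, library weights, rescaling, replicate blocks, ribosomal RNA share, library sets and each library left out.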

Additional observations from a re-analysis of the deposited data

How the results depend on the processing

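No member was called under any alternative except library weights, whose estimation stopped before its tolerance was reached and which called 1182 genes in males, 4890 in females, 2068 on average and 3903 in the difference between the sexes, with 1, 3, 3 and 2 members among them. For all genes tested in males, the count of 1 went to 4 with a pseudocount of 0.1, 2 without a filter, 7 with the stricter filter (FPKM of 5 or more), 5 with voom and 60 with the ribosomal RNA share as a covariate. It went to 0 with the replicate block within sex, with only the groups compared, without the 3 libraries of high interferon score and in the 8 libraries of higher ribosomal RNA share, and ran from 0 to 64 with each library left out. The replicate block changed no other call. In females 75 genes were called without a filter, 3 without the trend and 2 without the 3 libraries; on average 13 without a filter, 2 with the covariate and 0 in either library subset; in the difference 16 without a filter, 1 with a pseudocount of 0.1 and 1 without the 3 libraries. Between female and male controls the stricter filter, the 8 libraries and the groups compared alone each called 4. With each library left out, the count ran from 0 to 1 in females and in the difference. The cause was not tested.

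Signs turned for these values, none of them called. Voom gave Slc11a2 0.001 in males and Steap3 0.013 on average; median-ratio rescaling gave Fth1 0.004 in the difference. Library weights gave Tfrc −0.048 and Fth1 0.007 in males, Fth1 0.004 on average, and Steap4 −0.071 and Ftl1 −0.117 between controls. The 8 libraries gave Tfrc −0.191, Steap3 −0.052 and Fth1 0.111 in males, Ftl1 −0.312 and Hmox1 −0.172 in females, Ftl1 −0.123 on average, Slc11a2 0.111, Ftl1 −0.379, Ncoa4 0.021 and Hmox1 −0.060 in the difference, and Tfrc −0.167, Ncoa4 −0.074 and Hmox1 0.099 between controls. Without the 3 libraries, females gave Slc11a2 0.042, Steap3 0.101 and Hmox1 −0.007, the average Slc11a2 0.011 and Steap3 0.10, the difference Slc11a2 0.062, Steap3 0.002 and Fth1 0.012, and the controls Steap4 −0.027 and Ftl1 −0.119. The covariate gave Ftl1 −0.275 and Hmox1 −0.010 in females, Ftl1 −0.121 on average, Steap4 −0.048 and Ftl1 −0.309 in the difference, and Steap3 0.003 between controls. With each library left out, males ran from −0.141 to 0.051 (Slc11a2), −0.219 to 0.064 (Fth1), −0.072 to 0.140 (Ftl1), −0.082 to 0.164 (Tfrc) and −0.017 to 0.168 (Steap3), and females from −0.073 to 0.180 (Ftl1), −0.217 to 0.088 (Fth1) and −0.123 to 0.108 (Hmox1). The average ran from −0.072 to 0.035 (Steap3), −0.141 to 0.021 (Fth1) and −0.033 to 0.093 (Ftl1), and the difference from −0.043 to 0.120 (Steap4), −0.124 to 0.174 (Ftl1), −0.282 to 0.162 (Slc40a1), −0.170 to 0.156 (Fth1) and −0.185 to 0.026 (Slc11a2). Controls ran from −0.165 to 0.020 (Steap3), −0.105 to 0.338 (Slc40a1), −0.077 to 0.076 (Steap4) and −0.119 to 0.151 (Ftl1).

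The change of Steap4 kept its sign in males, in females and on average under every alternative run. As every control lay above every library labelled knockout, leaving libraries out, the filter, the pseudocount and the trend could not have turned it. The change of Slc40a1, which the stricter filter left out, also kept its sign, and in females its groups did not overlap either. In females both library subsets leave 1 arm with 1 library, assumed to vary like the other groups. With the replicate block within sex the paired Steap4 change of −0.43 in males had an adjusted p of 0.162. With 3 libraries a group the intervals were wide, and for Slc40a1, at 302 to 710 fragments, counting error adds to them. In 3 groups 1 or 2 libraries belong to the set of lower ribosomal RNA share, so library set and genotype are partly mixed.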

Other observations

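Haem synthesis held the iron-related gene whose genotype effect differed most by p between the sexes. Ppox stood at 5.0 ± 0.174 FPKM (SD, n = 3) in male controls and 4.52 ± 0.319 in males labelled knockout, and at 4.60 ± 0.238 and 5.87 ± 0.325 in females. The difference for Ppox, which encodes the penultimate enzyme of haem synthesis, was 0.42 on the log2(FPKM + 1) scale, female minus male (SE 0.0921, limma adjusted p = 0.18), so it missed the threshold. Ppox was chosen after its values were seen.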
